A study of Mus musculus with 35 samples.

Results

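Rn45s, Lars2, Mir5109, Malat1 and Neat1 are 5 genes of the 23366 in the RNA table of a study of UTX in the cranial neural crest of mouse embryos, a cell population that forms much of the face. They were chosen by name, as ribosomal precursor and abundant noncoding RNAs, but Lars2 is protein-coding and Mir5109 and Neat1 had few reads here. The levels of all 5 in these same libraries were already known. Their fold changes are therefore given as a description, with no p-value. The RNA data held 2 libraries each from male knockouts (Utx fl/y, Wnt1-Cre; mko1 and mko2), female knockouts (Utx fl/fl, Wnt1-Cre; fko1 and fko2) and wild-type males (WT Wnt1-Cre; wt1 and wt2), all at E12.5. Every group carried Wnt1-Cre, which acts in the crest and in parts of the dorsal neural tube, and a Rosa-Tomato reporter, and cells were sorted for Tomato and for exclusion of the dead-cell dye DAPI. UTX, encoded by the X-linked gene Kdm6a, removes methyl groups from lysine 27 of histone H3. Only males were sampled as wild type, so in the female comparison sex cannot be told apart from genotype, and both knockout comparisons used the same wild-type libraries. The labels do not say whether the libraries of a group came from separate embryos, so p-values measure the spread between these libraries, which may be technical.

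Ribosomal RNA is cut in the nucleolus from 1 long precursor made by RNA polymerase I. The precursor and the mature ribosomal RNAs as a rule carry no poly(A) tail, and kits that pick out messenger RNA by its tail leave most of them behind. Malat1 and Neat1 are long noncoding RNAs kept in the nucleus, Malat1 in nuclear speckles and Neat1 as the scaffold of paraspeckles. Malat1 and the long form of Neat1 end in an A-rich triple helix in place of a poly(A) tail. Per the labels' protocols, total RNA was taken up in Trizol LS and libraries were made with a stranded messenger RNA kit.

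Reads on genes numbered 14513993 to 16350892 per library. Summed marker levels of crest mesenchyme were 1642 to 1857 counts per 1e6 reads on genes (CPM) in the 4 knockout libraries and 1581 to 1659 CPM in wild type, for 8 of 8 markers in the table. Neuronal markers stood at 1148 to 2069 CPM in the knockouts and 1732 to 1934 CPM in wild type. Erythroid markers stood at 313 to 1305 CPM in the knockouts, highest in mko2, and 329 to 529 CPM in wild type, with Hba-a1 at 0 in every library. Neural tube markers stood at 61.9 to 80.9 CPM in the knockouts and 175 to 212 CPM in wild type. Macrophage markers were low but also lay apart, at 6.13 to 8.89 CPM in the knockouts and 13.0 to 13.6 CPM in wild type. Endothelial markers stood at 11.3 to 16.4 CPM in the knockouts and 12.7 to 16.6 CPM in wild type, and epithelial ones at 16.4 to 20.5 CPM and 15.2 to 21.2 CPM. The neural tube and macrophage shifts go with the split of Rn45s, Lars2 and Mir5109 between knockout and wild type, and their part in it was not tested. Kdm6a had 595 and 504 reads in the male knockouts, 810 and 966 in the female knockouts and 720 and 805 in wild type, but a count over the whole gene does not check a conditional deletion of part of it.

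Rn45s, the gene entry for the ribosomal RNA precursor, took more reads than any other gene in all 4 knockout libraries, and ranked second in both wild-type libraries, after the translation factor gene Eef1a1. It had 745861 and 511476 reads in mko1 and mko2, 540755 and 461495 in fko1 and fko2, and 142502 and 55588 in wt1 and wt2. As a share of reads on genes this was 4.97% (exact Clopper-Pearson 95% interval 4.96 to 4.98) in mko1 and 3.13% in mko2, 3.32% in fko1 and 2.99% in fko2, and 0.937% in wt1 and 0.383% (0.380 to 0.386) in wt2. The intervals cover counting error only and are far narrower than the distance between libraries of a group. All knockout libraries were above both wild-type libraries, as was so for 9.83% of all tested genes in CPM. The 2 wild-type libraries themselves stood apart, wt2 at 0.409 times wt1.

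Rn45s averaged 40499 ± 13035 CPM in the male knockout, 31561 ± 2279 in the female knockout and 6599 ± 3916 in wild type (SD, n = 2 libraries each). The edgeR log2 fold change was 2.72 (SE 0.485) in the male and 2.37 (SE 0.478) in the female knockout against wild type. Only 15 of 14521 tested genes had a higher fold change in the male comparison, and 24 in the female comparison. The female knockout differed from the male by -0.35 (SE 0.455), which is less than the SE. Without wt1 the folds were 3.55 in the male and 3.195 in the female comparison, and without wt2 they were 2.19 and 1.83.

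**Figure D1:**
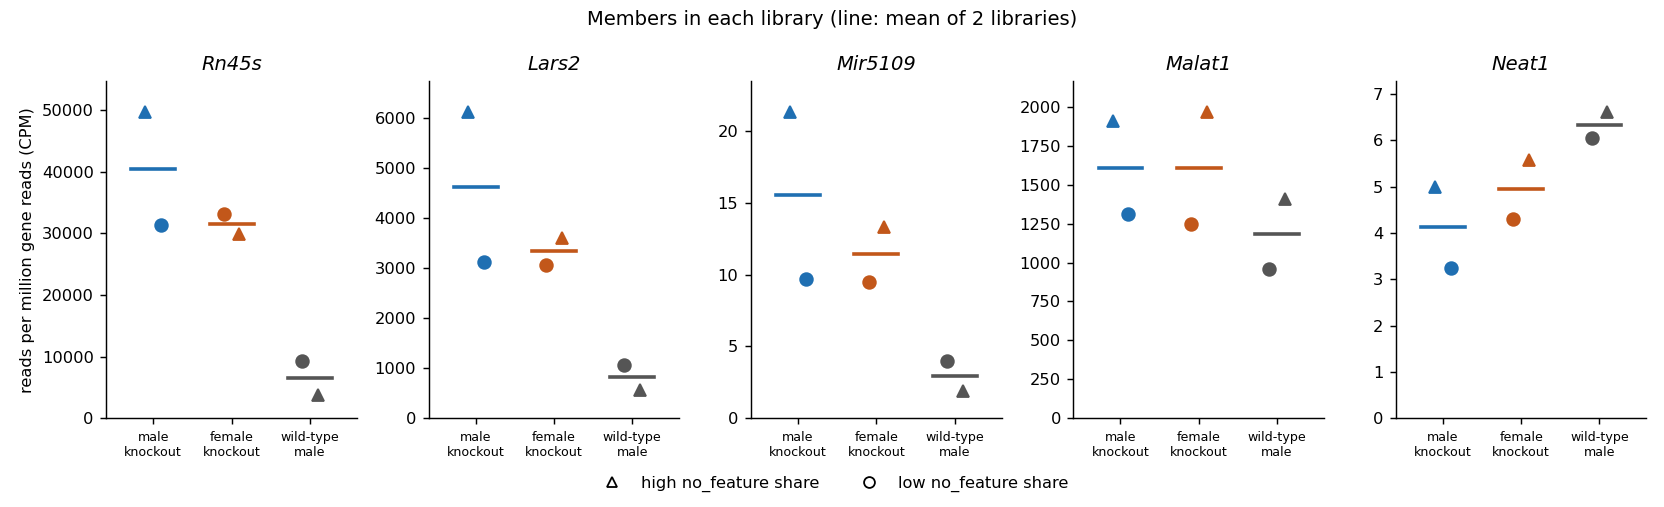
CPM of each of the 5 genes (linear axes from 0, 1 panel per gene), 1 point per library, in male knockouts, female knockouts and wild-type males, with a line at the mean of 2 libraries. Triangles mark the library of each genotype with more reads on no gene, and circles the other. Rn45s, Lars2 and Mir5109 lie higher in all 4 knockout libraries than in both wild-type libraries, Malat1 overlaps, and Neat1 lies lower in the knockouts.

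Lars2 encodes the enzyme that loads leucine onto its transfer RNA in mitochondria. On GRCm38.p6 it lies on chromosome 9 and overlaps the gene Gm46137, so reads in the overlap are uncertain, as the strand setting of the count is not given in the sources used here. The RefSeq promoter table of that build holds Lars2 and Malat1 and no entry for the other members. The 250 bases before the Lars2 start, chr9:123366677-123366926 on the plus strand, are shown because its reads moved with those of Rn45s although its promoter is of a protein-coding gene. Capitals mark the GC box, GGGCGG on either strand, which occurs in them at 2 places.
Lars2: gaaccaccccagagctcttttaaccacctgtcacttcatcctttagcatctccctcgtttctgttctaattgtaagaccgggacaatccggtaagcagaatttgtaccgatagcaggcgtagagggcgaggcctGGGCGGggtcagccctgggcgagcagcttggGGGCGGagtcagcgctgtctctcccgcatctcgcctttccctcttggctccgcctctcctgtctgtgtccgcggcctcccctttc
A GC box was found in 32.9% of the 27025 promoters of the same length, and the Lars2 window holds no TATA box (TATAAA, in 13.0% of promoters) and no CCAAT box (in 34.5%) on either strand. These matches describe letters and not binding. Whether reads on Lars2 came from sequence it shares with ribosomal RNA was not checked here, so they may not measure its messenger RNA.

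Lars2 reads numbered 91796 and 50944 in mko1 and mko2, 49956 and 55453 in fko1 and fko2, and 16217 and 8238 in wt1 and wt2. Ordered by reads, it ranked 3 and 7 in mko1 and mko2, 8 and 3 in fko1 and fko2, and 77 and 184 in wt1 and wt2. It averaged 4617 ± 2124 CPM in the male knockout, 3332 ± 378 in the female knockout and 817 ± 352 in wild type (SD, n = 2). The log2 fold change was 2.61 (SE 0.393) in the male and 2.14 (SE 0.387) in the female knockout, and female against male knockout was -0.47 (SE 0.371). Without mko1, the library with the most Lars2 reads, the last value was 0.085. Every knockout library was above both wild-type libraries, as was so for 9.83% of all tested genes in CPM.

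Mir5109 is named as a microRNA gene and has no entry in the RefSeq gene set used here. It had 320 and 159 reads in mko1 and mko2, 155 and 205 in fko1 and fko2, and 61 and 28 in wt1 and wt2. In CPM these were 21.3 and 9.72 in the male knockouts, 9.51 and 13.3 in the female knockouts and 4.01 and 1.93 in wild type. Its log2 fold change of 2.49 (SE 0.433) in the male and 2.04 (SE 0.436) in the female knockout lay close to those of Rn45s and Lars2. A messenger RNA library does not measure mature microRNAs, so these reads at most describe the locus. Whether they came from sequence shared with ribosomal RNA was not checked.

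Malat1 lies on chromosome 19 and holds the small RNA gene Mascrna within it. The 250 bases before its start, chr19:5802673-5802922 on the minus strand, are shown for contrast with Lars2. Capitals mark TGACG and its reverse complement CGTCA, the core letters of the cyclic AMP response element, which occur in them at 2 places.
Malat1: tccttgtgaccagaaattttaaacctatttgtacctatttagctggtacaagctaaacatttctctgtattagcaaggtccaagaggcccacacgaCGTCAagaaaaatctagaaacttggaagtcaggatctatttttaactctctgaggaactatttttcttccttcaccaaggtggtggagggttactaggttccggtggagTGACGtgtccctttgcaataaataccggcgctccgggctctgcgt
These letters were found in 17.9% of the same promoters, and the Malat1 window holds no GC box, CCAAT box or TATA box.

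Malat1 reads numbered 28591 and 21465 in mko1 and mko2, 20346 and 30328 in fko1 and fko2, and 14601 and 20434 in wt1 and wt2. The knockout and wild-type libraries overlapped: mko2 at 1313 CPM and fko1 at 1248 CPM were below wt2 at 1408 CPM. Malat1 averaged 1609 ± 419 CPM in the male knockout, 1608 ± 509 in the female knockout and 1184 ± 317 in wild type (SD, n = 2). The log2 fold change was 0.57 (SE 0.272) and 0.56 (SE 0.272) in the male and female comparison, and -0.01 (SE 0.271) between the knockouts. Of 14521 genes, 704 had a higher fold change in the male and 848 in the female comparison.

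The spread of Malat1 within a genotype went with the share of reads that fell on no gene. The table's own line for aligned reads that fell on no gene (no_feature) held 20.9% of all entries in mko1, 21.1% in fko2 and 21.5% in wt2, but 16.6% in mko2, 16.6% in fko1 and 16.8% in wt1. In every genotype the library with more such reads had more Malat1, at 1.45 times the other in the male knockout, 1.58 times in the female knockout and 1.47 times in wild type. Of all tested genes, 31.7% were higher in that library in all 3 genotypes. Compared only among libraries of like no_feature share, knockout over wild type was 1.35 for mko1 and 1.40 for fko2 against wt2, and 1.37 for mko2 and 1.30 for fko1 against wt1. With that split as a term in the fit, the Malat1 folds were 0.56 and 0.55, each with SE 0.0844. What sets the no_feature share is not given in the sources used here, and its part in the Malat1 levels was not tested.

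Neat1 had few reads and ran the other way. It had 75 and 53 reads in mko1 and mko2, 70 and 86 in fko1 and fko2, and 92 and 96 in wt1 and wt2. In CPM this was 4.999 and 3.24 in the male knockouts, 4.29 and 5.58 in the female knockouts and 6.05 and 6.61 in wild type. All knockout libraries were below both wild-type libraries, as were 29.5% of all tested genes, so this order is common in CPM without a scaling factor. The log2 fold change was -0.50 (SE 0.256) in the male and -0.24 (SE 0.252) in the female knockout, the second within its SE. Within a genotype Neat1 was higher in the library with more no_feature reads, at 1.54, 1.30 and 1.09 times the other in male knockout, female knockout and wild type. Counting error is large here: the share in mko2 was 0.000324% of reads on genes, with an interval of 0.000243 to 0.000424.

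All 5 members passed the filter on low counts. Of them 3, Rn45s, Lars2 and Mir5109, were higher in all 4 knockout libraries than in both wild-type libraries, against a background of 9.83% of tested genes. This background was counted in CPM with no scaling factor. The TMM factors were 0.940 to 1.005 in the knockout and 1.04 and 1.08 in the wild-type libraries. Unscaled CPM thus lowers the share of genes above wild type and raises the share below, compared with scaled CPM. Together the 5 genes took 5.78% and 3.57% of reads on genes in the male knockouts, 3.75% and 3.55% in the female knockouts, and 1.14% and 0.581% in wild type.

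Rn45s, Lars2 and Mir5109 moved together across the libraries, while Malat1 and Neat1 each had an order of their own. Lars2 and Mir5109 had the same order of libraries, mko1, fko2, mko2, fko1, wt1 and wt2. Rn45s differed from that order in the places of fko1 and fko2. Over the 6 libraries, Pearson's r of log2 CPM, given as a description of points that share genotype and depth, was 0.990 for Rn45s with Lars2, 0.979 for Rn45s with Mir5109 and 0.996 for Lars2 with Mir5109. With Malat1 it was 0.59 for Rn45s, 0.68 for Lars2 and 0.70 for Mir5109, and with Neat1 it was -0.59 for Rn45s, -0.52 for Lars2, -0.45 for Mir5109 and -0.06 for Malat1. Spearman's rho was 0.83 for Lars2 with Malat1 and for Mir5109 with Malat1, the same as for Rn45s with Lars2 and with Mir5109. By rank these pairs with Malat1 are thus not set apart. Between the libraries of a genotype, Rn45s went the same way as Lars2 and as Mir5109 in 2 of 3 genotypes. Lars2 went with Mir5109 in 3, each of them with Malat1 in 2, and Rn45s with Malat1 in 1. With Neat1 the number was 1 for Rn45s, 2 for Lars2 and for Mir5109, and 3 for Malat1. The r values thus span the split between knockout and wild type and do not show that Rn45s tracked the others within a genotype. Malat1 spanned 2.05-fold in CPM over the libraries, and Lars2 10.8-fold.

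Ratios of reads within a library show how far these genes held together. For every 1000 Rn45s reads, Lars2 had 123 and 99.6 in mko1 and mko2, 92.4 and 120.2 in fko1 and fko2, and 114 and 148 in wt1 and wt2, a range of 1.60-fold while Rn45s itself spanned 13.0-fold in CPM. Mir5109 reads per 1000 Lars2 reads were 3.49 and 3.12 in the male knockouts, 3.10 and 3.70 in the female knockouts and 3.76 and 3.40 in wild type, within counting error of each other. In each genotype Lars2 per 1000 Rn45s reads was higher in the library with more no_feature reads, beyond counting error. Mir5109 per 1000 Rn45s reads had the same order, within counting error in wild type. It was 0.429 and 0.311 in mko1 and mko2, 0.444 and 0.287 in fko2 and fko1, and 0.504 and 0.428 in wt2 and wt1. Malat1 per 1000 Rn45s reads spanned 9.77-fold. Neat1 per 1000 Malat1 reads was 2.62 and 2.47 in the male knockouts and 3.44 and 2.84 in the female knockouts, against 6.30 and 4.70 in wild type. The ratio thus lay lower in all 4 knockout libraries. It sets reads of 2 genes in a library side by side and does not compare their levels per length.

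**Figure D2:**
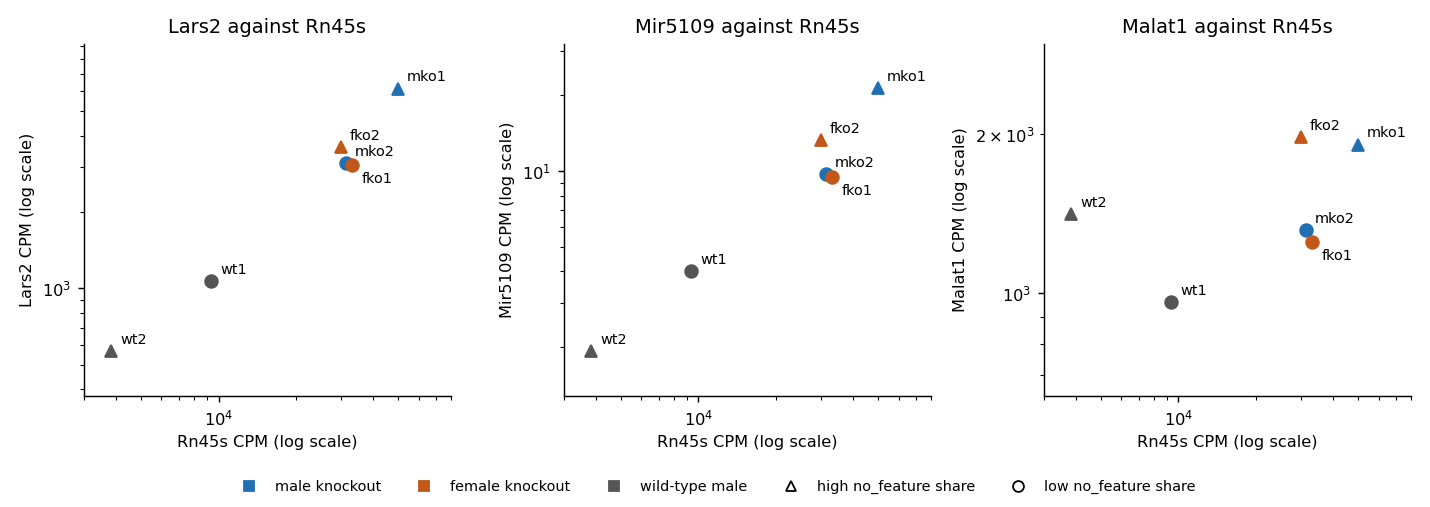
CPM of Lars2 (left), Mir5109 (middle) and Malat1 (right) against CPM of Rn45s, both on log axes, 1 point per library coloured by genotype. Lars2 and Mir5109 lie along a line from wt2 over wt1 to mko1, while Malat1 splits by the no_feature share (triangles above circles in each genotype).

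Within libraries of like no_feature share, knockout over wild type for Rn45s was 13.0 for mko1 and 7.82 for fko2 against wt2, and 3.34 for mko2 and 3.54 for fko1 against wt1. Lars2 gave 10.8 and 6.34 against wt2, and 2.92 and 2.87 against wt1. Mir5109 gave 11.1 and 6.90 against wt2, and 2.42 and 2.37 against wt1. The direction held in both sets, but the size hung strongly on the wild-type library. For each of the 3 genes, both ratios against wt2 were far above both against wt1, as wt2 was lower than wt1. Unlike Malat1, these genes in CPM did not go with the no_feature share in all 3 genotypes, though the ratios of Lars2 and Mir5109 to Rn45s did. In the library with more such reads, Rn45s was 1.59 times the other in the male knockout, 0.903 times in the female knockout and 0.409 times in wild type. Lars2 was 1.96, 1.17 and 0.532 times the other in that order of genotypes, and Mir5109 2.19, 1.40 and 0.481 times, so both were higher in that library in the knockouts and lower in wild type.

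The alignment_not_unique line of the table counts reads that aligned to several places and were given to no gene. It held 24.3% and 24.4% of all entries in mko1 and mko2, 24.3% and 23.2% in fko1 and fko2, and 21.3% and 22.5% in wt1 and wt2. Group means were 24.3 ± 0.11% in the male knockout, 23.7 ± 0.77% in the female knockout and 21.9 ± 0.817% in wild type (SD, n = 2). All 4 knockout libraries were thus above both wild-type libraries, as they were for Rn45s. An exact permutation test of 4 libraries against 2 cannot give a two-sided p below 0.0667, and none is given.

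Within a genotype the order did not carry over for the share of all entries. The library with more Rn45s had the larger alignment_not_unique share in the female knockout alone, by 0.322 points of Rn45s for 1.09 points of non-unique reads. In wild type, wt1 had the larger Rn45s share and the smaller non-unique share, and in the male knockout mko1 had 1.84 points more Rn45s with a non-unique share 0.155 points lower. Lars2 and Mir5109 went with the non-unique share in 0 of 3 genotypes. This hangs on the denominator. Set over reads on genes, non-unique reads came to 44.6% and 41.8% in mko1 and mko2. They came to 41.5% and 42.0% in fko1 and fko2, and 34.7% and 40.4% in wt1 and wt2. On that measure Rn45s, Lars2 and Mir5109 went with it in the male knockout. In the female knockout Lars2 and Mir5109 did and Rn45s did not, and all 3 genes ran against it in wild type. The Rn45s shares of knockout and wild-type libraries form clusters with a gap of 2.06 points, wider than the range within either, so no correlation over all libraries is given for it.

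For the other 4 members, the correlation of the share of reads on genes with the non-unique share over the 6 libraries is given as a description, with no p-value, since the members were chosen with these values known and the libraries share genotypes. Lars2 gave Pearson's r of 0.73 and Spearman's rho of 0.66. Mir5109 gave an r of 0.66 with the same rho. Without wt1 and wt2, the libraries farthest from the median non-unique share, r was 0.11 for Lars2 and -0.04 for Mir5109, so these relations rest on the wild-type libraries.

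Neat1 gave an r of -0.81 and a rho of -0.89, and an r of -0.77 without wt1 and wt2. Malat1 gave an r of 0.42 and a rho of 0.26. Its r was -0.67 without wt1 and wt2, and -0.16 without wt1 alone. With the non-unique reads set over reads on genes in place of all entries, r was -0.42 for Neat1 and 0.78 for Malat1, so both values hang on the denominator.

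**Figure D3:**
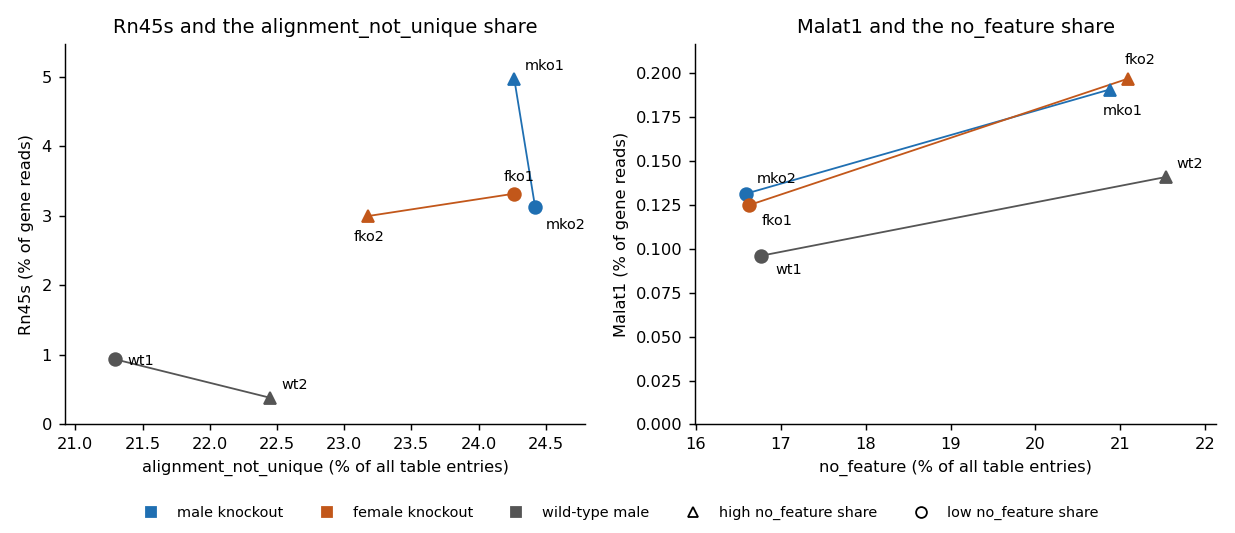
Left, the Rn45s share of reads on genes against the alignment_not_unique share of all entries, and right, the Malat1 share against the no_feature share, 1 point per library, with a line joining the 2 libraries of a genotype. Rn45s falls into a knockout and a wild-type cluster with lines of differing slope, while all 3 Malat1 lines climb with the no_feature share.

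Some other RNAs that lack a poly(A) tail were read for comparison, from a list of 22 small RNAs that leaves out histone genes. Like the other gene lists below, it was chosen with earlier results of these data known. The p-values of list genes are thus not an independent test. The table holds 16 of the 22, of which 5 were tested. Rmrp, the RNA of the ribonuclease MRP that cuts the ribosomal precursor, was higher in both knockouts. Rmrp had 151 and 76 reads in the male knockouts, 95 and 174 in the female knockouts, and 26 and 11 in wild type. On the log2 scale it was higher by 2.67 (SE 0.517, edgeR adjusted p = 0.0382) in the male and by 2.88 (SE 0.513, edgeR adjusted p = 0.0436) in the female knockout. Over all genes, 0.379% were called higher in the male and 0.303% in the female comparison.

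Rpph1, the RNA of ribonuclease P, which trims transfer RNAs, had 51 and 29 reads in the male knockouts, 55 and 75 in the female knockouts, and 14 and 8 in wild type. It passed in the female knockout, at 2.58 (SE 0.427, edgeR adjusted p = 0.0347). In the male it did not pass, at 1.90 (SE 0.447, edgeR adjusted p = 0.0662). Scarna2, a guide RNA of the Cajal body, had 2 to 33 reads per library and did not pass, at 2.31 (edgeR adjusted p = 0.132) and 2.22 (edgeR adjusted p = 0.174). With the no_feature split as a term, edgeR adjusted p was 0.0127 for Rpph1 and 0.0437 for Scarna2 in the male comparison and 0.0507 for Scarna2 in the female. Over all genes, 12% in the male and 12.2% in the female comparison were called higher in that fit. Scarna17, another guide RNA, had 0.17 (edgeR adjusted p = 0.719) and 0.45 (edgeR adjusted p = 0.345). Rnu73b, the other tested gene, named after its values were seen, had 0.12 and -0.05. The list thus held 3 genes with large folds and 2 near 0. Its median was 1.90 and 2.22, and that over all genes 0.01 in both comparisons. These medians do not compare like with like. Scarna2, with 7 and 2 reads in wild type, passed the filter on low counts only through the knockout libraries. The other 11 genes had 35 and 28 reads in sum in the male knockouts, 33 and 27 in the female knockouts, and 21 and 17 in wild type. Among entries related to ribosomal RNA, Rn4.5s was the only other in the table and had 0 reads in every library.

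The Rmrp and Rpph1 calls did not hold throughout. With total reads on genes as the only scaling, Rmrp had 2.55 (edgeR adjusted p = 0.0547) in the male and 2.78 (edgeR adjusted p = 0.0611) in the female comparison, and Rpph1 2.46 (edgeR adjusted p = 0.0506) in the female. Leaving out mko1, mko2 or wt2 gave Rmrp edgeR adjusted p values of 0.209, 0.078 and 0.0698 in the male comparison, and leaving out wt2 gave 0.0678 for Rmrp and 0.081 for Rpph1 in the female comparison. Fitting only the groups compared gave Rmrp 2.88 (edgeR adjusted p = 0.0726) and Rpph1 2.58 (edgeR adjusted p = 0.0648) in the female comparison. With those 2 settings the folds stayed close to the values above.

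**Figure D4:**
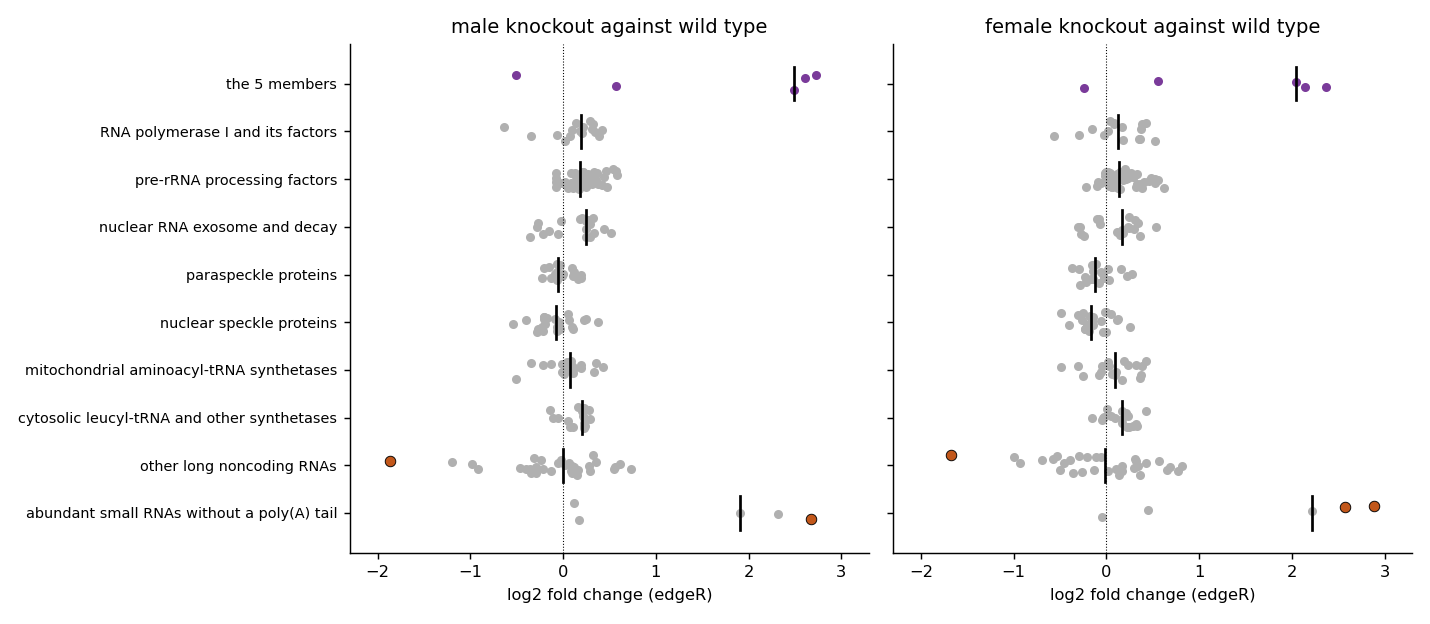
Log2 fold change of the 5 members (top) and of every tested gene of each list, with the median (line), in the male (left) and the female knockout (right) against wild type. List genes past the edgeR adjusted p of 0.05 are orange. Of the small RNAs without a poly(A) tail, 3 of 5 lie near Rn45s, Lars2 and Mir5109 and the other 2 near 0, where the factors that make and process ribosomal RNA also lie.

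The proteins that make and process ribosomal RNA did not pass the test in the fit of 3 group means, but some did with the no_feature split as a term. Of 16 tested genes of RNA polymerase I and its factors, 0 were called in either knockout by edgeR, with medians of 0.19 and 0.13. At an unadjusted p under 0.05, 1 was higher and 2 were lower in the male and 1 was higher and 1 lower in the female comparison. Over all genes, 2.34% in the male and 1.12% in the female comparison were called by edgeR in either direction, 20.2% and 19.6% had an unadjusted p under 0.05, and DESeq2 called 5.21% and 3.6%. In this list DESeq2 called 1 lower in the male comparison and 0 in the female. Baz2a, which silences ribosomal gene repeats, had -0.64 (SE 0.202, edgeR adjusted p = 0.140) and -0.56 (SE 0.201, edgeR adjusted p = 0.199). Polr1d, a subunit shared with RNA polymerase III, had 0.38 and 0.52. With the no_feature split as a term, edgeR called 4 of the 16 higher and 1 lower in the male and 5 higher and 1 lower in the female comparison, with Baz2a at -0.63 (edgeR adjusted p = 0.00234) and -0.56 (edgeR adjusted p = 0.00481). In that fit 12% of all genes were called higher and 12.7% lower in the male comparison, and 12.2% and 11.1% in the female.

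Of 47 factors that cut and modify the precursor, 0 were called by edgeR, with medians of 0.19 and 0.14 and with 42 positive in the male and 40 in the female comparison. Scaled by total reads on genes alone, which moved the median of all genes to -0.11 in both, 36 and 25 were positive. At an unadjusted p under 0.05, 11 and 9 were higher and 0 lower, and DESeq2 called 1 higher in the male and 0 in the female. Fbl, fibrillarin, the methyltransferase of the small nucleolar ribonucleoproteins, had the largest positive fold change in the male comparison, at 0.58 (SE 0.172, edgeR adjusted p = 0.123), and 0.48 (SE 0.172, edgeR adjusted p = 0.200) in the female. Nop10, of the pseudouridine-making complexes, had 0.46 and 0.62, and Imp3, of the early small-subunit processing complex, 0.57 and 0.53. With the no_feature split as a term, 14 of the 47 were called higher in the male and 12 in the female comparison by edgeR, and 0 lower. The shares of all genes called higher in that fit were 12% and 12.2%. At an unadjusted p under 0.05 the shares of all genes were 20.2% and 19.6% in either direction.

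Of 19 exosome and RNA decay genes, 0 were called by edgeR or DESeq2, with medians of 0.24 and 0.17 and 1 higher in each comparison at an unadjusted p under 0.05. Exosc3, a cap subunit of the exosome, had 0.44 (edgeR adjusted p = 0.161) in the male comparison. When the no_feature split was a term, 4 were called higher and 1 lower in the male and 3 higher and 1 lower in the female comparison. That fit called 12% of all genes higher and 12.7% lower in the male, and 12.2% and 11.1% in the female comparison. An unadjusted p under 0.05 was reached by 20.2% and 19.6% of all genes.

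The protein partners of Malat1 and Neat1 were likewise not called in the fit of 3 group means. Of 24 nuclear speckle genes 0 passed by edgeR or DESeq2, with medians of -0.08 and -0.16. At an unadjusted p under 0.05, 1 was higher and 2 lower in the male comparison, and 0 higher and 1 lower in the female. Srrm2, a core protein of speckles, had -0.54 in the male comparison, and Srsf5, a splicing factor, -0.40 and -0.49. Of 20 paraspeckle genes 0 passed by either tool, with medians of -0.06 and -0.12, and at an unadjusted p under 0.05 only Hnrnph3 was lower, in the female comparison, at -0.37. With the no_feature split, 1 speckle gene was called higher and 3 lower in the male, and 0 higher and 3 lower in the female comparison. Of the paraspeckle genes 0 were called in the male, and 1 higher and 2 lower in the female comparison. For all genes the shares in that fit were 12% higher and 12.7% lower in the male, and 12.2% and 11.1% in the female comparison. At an unadjusted p under 0.05 they were 20.2% and 19.6% in either direction.

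The other enzymes that load transfer RNAs were not called in that fit. The list of mitochondrial synthetases also holds Kars and Gars, which serve the cytosol too, and Qrsl1, which is not a synthetase. Of its 19 genes, 0 were called by edgeR or DESeq2. Fold changes ran from -0.51 to 0.43 in the male and -0.49 to 0.42 in the female comparison, highest in Kars. Vars2, the valine enzyme of mitochondria, was the 1 gene lower at an unadjusted p under 0.05, at -0.51 and -0.49. Of 18 cytosolic synthetases, 0 were called by edgeR or DESeq2, with medians of 0.21 and 0.17, and 2 were higher at an unadjusted p under 0.05, in the female comparison. In the fit with the no_feature split, Kars of the mitochondrial list was called higher and Vars2 lower in each comparison. Of the cytosolic ones 2 were higher in the male and 4 in the female. That fit called 12% of all genes higher and 12.7% lower in the male, and 12.2% and 11.1% in the female. The shares of all genes with an unadjusted p under 0.05 were 20.2% and 19.6%. RNAs encoded by the mitochondrial genome were not analysed here.

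Of 32 other long noncoding RNAs tested, 1 fell in both knockouts, against 1.96% of all genes called lower in the male and 0.82% in the female comparison, and the medians were -0.00 and -0.02. It was Miat, a nuclear RNA of neural tissue, with 3323 and 3590 reads in the male knockouts, 2930 and 5067 in the female knockouts, and 9647 and 16247 in wild type. On the log2 scale this was -1.86 (SE 0.300, edgeR adjusted p = 0.0226) in the male and -1.67 (SE 0.298, edgeR adjusted p = 0.0436) in the female knockout. Without mko1 or mko2 its edgeR adjusted p was 0.167 and 0.141 in the male comparison, and in the female comparison it was 0.11 in a fit of only the groups compared. It was also from 0.0542 to 0.0793 there by edgeR when mko1, mko2, fko1 or wt2 was left out or total reads were the only scaling. DESeq2 called 2 of the 32 higher and 4 lower in the male and 3 higher and 2 lower in the female comparison. At an unadjusted p under 0.05, 3 were higher and 5 lower in the male, and 7 higher and 9 lower in the female. Given the no_feature split, edgeR called 3 higher and 5 lower in the male, and 6 higher and 9 lower in the female. Of all genes, DESeq2 called 5.21% and 3.6%, and 20.2% and 19.6% had an unadjusted p under 0.05, in either direction. With the split edgeR called 12% of all genes higher and 12.7% lower in the male, and 12.2% and 11.1% in the female. Snhg6, a host gene of small nucleolar RNA, had 0.61 (edgeR adjusted p = 0.0749) in the male and 0.78 (edgeR adjusted p = 0.0522) in the female comparison. Sox2ot and Six3os1, transcribed beside the neural genes Sox2 and Six3, had -1.19 (edgeR adjusted p = 0.0688) and -0.92 (edgeR adjusted p = 0.0662) in the male comparison.

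The summed level of 8 neural tube markers was 70.6 and 79.8 CPM in the male knockouts and 61.9 and 80.9 in the female knockouts, against 175 and 212 CPM in wild type, apart in the same direction as Miat. Their part in the Miat result was not tested. In RNA from a sorted pool, fewer cells of a type and less RNA per cell cannot be told apart.

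Between female and male knockouts, 0 of the 200 tested list genes were called by edgeR, where 5 genes or 0.0344% of all were. At an unadjusted p under 0.05, 2 were higher and 0 lower in the female knockout, against 1.72% of all genes in either direction, and DESeq2 called 0, against 0.0275% of all genes.

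The genes most like each member in pattern were sought among 11490 genes with a mean of at least 5 CPM, by Pearson's r of scaled log2 CPM over the 6 libraries. For Rn45s these were Golt1b (r = 0.998), Wdr46, Ddit4l, Wls and Itm2a, for Lars2 Kdelr2 (0.993), Mlec, Golt1b, Wdr46 and Calu, and for Mir5109 Kdelr2, Mlec, Wdr46, Calu and Jak1. In scaled log2 CPM these genes followed the members closely but over a far smaller range. Golt1b, a Golgi transport protein, spanned 0.36 on the log2 scale and Itm2a, a membrane protein, 1.05. In unscaled CPM the order of libraries did not always hold. Mlec had 364 CPM in fko1, below 380 in wt1 and 376 in wt2. For Malat1 they were Efna5 (0.996), Tnfrsf10b, Arsk, Crispld1 and Zfp36l1, and for Neat1 Smcr8 (0.996), Pxdn, Zfp940, Ttc37 and N4bp2. No gene named for Rn45s, Lars2 or Mir5109 was also named for Malat1 or Neat1. These genes were picked as the highest r of a large search over few libraries, and r is a description only.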

How the data were processed

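RNA-seq of 6 libraries, 2 per genotype, was used. The other samples of the series were not analysed here. Per the submitters' processing notes, the tools were TopHat2, HTSeq and Trimmomatic, besides Bowtie2, SAMtools, bedtools and MACS2, on genome build mm9. Versions, annotation and the strand setting of counting are not given in the sources used here. The RNA table deposited by the authors holds raw read counts per gene, not normalized, with 5 HTSeq summary lines, which were kept out of library sizes and tests. They held 16.6 to 21.5% (no_feature), 0.462 to 0.590% (ambiguous) and 21.3 to 24.4% (alignment_not_unique) of entries, and the other lines were 0. Reads without molecular identifiers are not independent molecules.

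Counts were tested with edgeR 4.0.16 in R 4.3.3 (quasi-likelihood F test, TMM, filterByExpr, 14521 genes), all 6 libraries in 1 fit of 3 group means, with Benjamini-Hochberg adjustment over all genes and a threshold of 0.05. The steps were tested on simulated data. CPM is per 1e6 reads on genes with no scaling factor. Log2 CPM used TMM and a prior count of 2. DESeq2 1.42.0 was an alternative, as were other scalings, filters, sample sets and a term for the no_feature split. Intervals were computed with scipy 1.17.1.

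The members and gene lists were chosen with earlier results of these data known. Named genes are the 5 members, up to 4 genes per list with the smallest p, the 5 genes most like each member in pattern, and Kdm6a. Not every such gene is described. Sequences are from RefSeq (GRCm38.p6), used for names and promoters only.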

Additional observations from a re-analysis of the deposited data

How the results depend on the processing

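None of the settings tried turned the sign of a member's fold change against wild type. Between the knockouts, the sign of all 5 changed with the library left out. The number of genes called in the male comparison, 340, was 757 with DESeq2, 938 with only the groups compared, 3589 with the no_feature split as a term and from 2 (without mko2) to 990 (without fko2) when 1 library was left out. In the female comparison 163 became 33 in a fit of only the groups compared, 329 under the replicate block, 523 by DESeq2, 3384 with the no_feature split and from 60 (without mko2) to 1048 (without fko2) when 1 library was left out. Between the knockouts 5 became 5 to 9 with 1 library left out, 4 by DESeq2, 7 with the no_feature split and 6 in a fit of these groups alone. Of the 200 tested list genes, 2 in the male and 3 in the female comparison were called, against 2.34% and 1.12% of all genes. With the no_feature split 32 were called higher and 11 lower in the male and 34 and 17 in the female. The shares of all genes with that split were 12% higher and 12.7% lower in the male, and 12.2% and 11.1% in the female. Where 1 library of a group remained, its spread was taken from the other groups.

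With 1 library left out, the male folds ranged from 2.19 (without wt2) to 3.55 (without wt1) for Rn45s, 2.05 (without mko1) to 3.17 (without wt1) for Lars2, 1.83 (without mko1) to 3.15 (without wt1) for Mir5109, 0.29 to 0.82 for Malat1 and -0.83 to -0.23 for Neat1. The female folds ranged from 1.83 to 3.20 for Rn45s, 1.71 to 2.70 for Lars2, 1.57 to 2.70 for Mir5109 and -0.41 to -0.11 for Neat1. Female against male folds ranged from -0.64 to 0.0079 for Rn45s, -0.87 to 0.085 for Lars2, -0.90 to 0.21 for Mir5109 and -0.013 to 0.59 for Neat1. The r with the non-unique share ranged from -0.90 to -0.78 for Neat1, reached -0.90 with the share taken of all entries, and ranged from -0.16 to 0.59 for Malat1. The cause was not tested.

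Over 14521 genes, deviations of same-numbered libraries had r of -0.23 and -0.24 for the male knockout with the female knockout and wild type. For the female knockout with wild type r was 0.43. Matched by the no_feature split in place of the number, r was 0.23, 0.24 and 0.43 in that order. Replicate numbers thus did not pair the libraries alike in every genotype. The replicate block gave 481 calls in the male comparison and 5 between the knockouts. Scaling by total reads alone turned the median of the mitochondrial synthetase list to -0.05 and -0.04, from 0.07 and 0.09 in the male and female comparison. Depth limits Neat1, Mir5109 and the small RNAs most.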
